A study of Mus musculus with 6 samples.

Results

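Genes of cholesterol synthesis, its SREBP control, sterol export and sterol oxidation were examined in the injured cervical spinal cord of the mouse. The members were 31 genes listed by symbol, and each matched 1 Ensembl identifier among the 43432 in the count tables. By role they were 18 enzymes of synthesis, 5 genes of SREBP control, 1 sterol carrier, 4 export genes and 3 genes of oxysterol or ester formation. None of the 31 is a lipoprotein receptor, so uptake is covered below by a separate list.

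The 2 groups of wildtype C57BL/6 mice were SCI (n = 3), with a contusion on 1 side at cervical level 5 made by an Infinite Horizon impactor set to 50 kdyn, and sham (n = 3), with the bone over the cord removed at the same level and no blow. Cord tissue was taken 4 h after SCI, and the collection time of the sham mice is not given in the sources used here. Age and sex are also not given there, and the tissue is a mixture of all cells in the dissected cord. In such bulk RNA, fewer cells of a type and less RNA per cell cannot be told apart.

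Cholesterol in the cord is made locally, because lipoproteins do not cross the blood-spinal cord barrier, and much of it lies in myelin. Enzymes of the mevalonate and sterol pathways are transcribed under SREBP2, a membrane-bound factor that SCAP escorts out of the endoplasmic reticulum when sterols are low and that INSIG proteins hold back when sterols are high. Excess sterol is oxidised to oxysterols, which activate the LXR receptors and so the export pumps ABCA1 and ABCG1.

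Libraries were of the QuantSeq type, which reads near the 3′ end of polyadenylated RNA. They held 5364263 to 8229961 counts in SCI and 3407176 to 11543633 in sham. All 6 markers checked for spinal cord were present in every library, among them the neuronal synaptic gene Snap25, at 272 to 400.4 CPM (counts relative to the scaled library size) in SCI and 273 to 454 CPM in sham. Together the 6 cord markers summed to 5602 to 9053 CPM in SCI and 6500 to 8830 CPM in sham. The 10 markers of hepatocytes were also present in every library, and none was at 0. In each library they summed to far more than the cord markers. The summed level of the hepatocyte markers was 50810 to 55150 CPM in SCI and 40030 to 95380 CPM in sham, with the highest value in sham 2 and the lowest in sham 3. The values below are thus not those of cord RNA alone. Liver makes cholesterol too, so values without sham 2, or from a fit with the mean log2 level of these markers as a covariate, are given below for some of the members they move. Markers of red cells summed to 1578 to 4270 CPM in SCI and 608 to 838 CPM in sham, and those of neutrophils to 52.8 to 71.6 CPM in SCI and 14.9 to 47.5 CPM in sham. The 8 markers of oligodendrocytes summed to 5632 to 9370 CPM in SCI and 6001 to 8166 CPM in sham. Of these 8, 6 had a positive log2 fold change of SCI over sham. Their median was 0.19, against -0.002 over all genes tested. The part of all these cells in the values below was not tested.

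Promoter sequences are shown for 4 members because most synthesis genes, and most members as a whole, held the same short letters there. In windows from 250 bases before to 50 after each RefSeq start (GRCm38.p6), found for 26 of the members, the letters CCAAT on either strand (the site named after the CCAAT box, bound by NF-Y, a known partner of SREBP) occurred in 14 of 15 synthesis genes with a window, or 93.3%. They occurred in 4 of 5 genes of SREBP control (80%), in 2 of 3 of oxysterol and ester formation (66.7%) and in none of 3 export genes. That made 20 of the 26 members (76.9%), against 42.5% of the 10299 tested genes that had a window. The stretches below run 5′ to 3′ over the 150 bases before the start, with CCAAT or its reverse complement ATTGG, and TCACNCCAC, in capitals. Mvk (chr5:114444119-114444268, plus strand) and Mvd (chr8:122443423-122443572, minus strand) are the members with the smallest p-values below. Hmgcs1 (chr13:119690201-119690350, plus strand) held the one TCACNCCAC among the members, a loose form of the sterol regulatory element. Abca1 (chr4:53159896-53160045, minus strand) stands for the export genes and held none of these letters.
Mvk: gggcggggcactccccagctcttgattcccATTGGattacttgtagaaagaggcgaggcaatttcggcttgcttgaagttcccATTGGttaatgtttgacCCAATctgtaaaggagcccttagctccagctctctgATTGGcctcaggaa
Mvd: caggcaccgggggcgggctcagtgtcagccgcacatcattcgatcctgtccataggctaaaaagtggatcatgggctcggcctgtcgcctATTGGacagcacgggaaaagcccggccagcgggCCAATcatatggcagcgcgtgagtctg
Hmgcs1: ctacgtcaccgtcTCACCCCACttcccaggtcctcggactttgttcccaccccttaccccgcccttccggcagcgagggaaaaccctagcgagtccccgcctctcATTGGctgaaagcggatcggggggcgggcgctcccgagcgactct
Abca1: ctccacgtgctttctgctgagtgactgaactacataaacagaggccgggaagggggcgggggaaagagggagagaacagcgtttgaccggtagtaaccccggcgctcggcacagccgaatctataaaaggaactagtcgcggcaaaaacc

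The Mvk stretch held 4 matches to CCAAT on the 2 strands together, that of Mvd held 2 and that of Hmgcs1 held 1 beside its TCACNCCAC. TCACNCCAC occurred in 1.37% of tested genes with a window. Its full form, with A before these letters and C at the open position, occurred in none of the 26 members and in 0.0777% of tested genes. The exact LXR repeat, AGGTCA given again after 4 open bases, occurred in none of either. Since no tested gene held it, its absence says nothing about LXR sites in the members, Abca1 included. Inexact forms of the repeat were not searched. These matches describe letters in a short window only.

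Most transcripts of synthesis enzymes had a higher level in SCI than in sham, while the export genes lay on both sides of no difference. None of the 29 members that passed the filter on low counts was called at an adjusted p under 0.05 (edgeR quasi-likelihood test over 13560 genes). Over all genes edgeR called 0.885% higher and 0.0442% lower. With the DESeq2 Wald test 3 members were called, Mvk, Mvd and Msmo1, where over all genes it called 1.04% higher and 0.0811% lower. With limma voom 0 were called, where over all genes it called 0.804% higher and 0.0295% lower. At an unadjusted p under 0.05, 8 of 17 tested synthesis enzymes were higher and 0 lower, where 4.27% of all tested genes were higher and 3.11% lower. Of the 12 tested members of other roles, 0 were higher and 2 lower at that level. A positive log2 fold change was found in 15 of the 17, and in 49.7% of all tested genes. SCI lay wholly above sham in 9 of the 17 and wholly below it in 0, where over all genes SCI lay wholly above sham in 7.73% and wholly below it in 5.94%. The median log2 fold change was 0.45 over the 17 tested synthesis enzymes, 0.08 over the 4 export genes and -0.002 over all genes. Without SCI 2, 5 of the 17 were higher at an unadjusted p under 0.05, where 3.29% of all genes were. With the hepatocyte level as a covariate it was 14 of 17, where 7.44% of all genes were, and without sham 2 it was 12 of 17, where 4.86% were.

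In the first steps, which turn acetyl-CoA into mevalonate, the most abundant member was Hmgcs1, the cytosolic HMG-CoA synthase. It was at 307, 267 and 317 CPM in SCI libraries 1 to 3, against 236, 218 and 226 CPM in sham libraries 1 to 3. All 3 SCI libraries lay above all 3 sham libraries, with a log2 fold change of 0.39 ± 0.19 (SE; adjusted p = 0.705). Acat2, the cytosolic thiolase that begins the pathway, averaged 67.2 ± 2.90 CPM in SCI and 53.6 ± 5.96 CPM in sham (SD, n = 3 each), again without overlap (log2 0.32 ± 0.17, adjusted p = 0.736).

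The kinase and decarboxylase steps that follow showed the members' highest fold changes. Mvk, mevalonate kinase (chromosome 5, 114444269 to 114460591, GRCm38; ENSMUSG00000041939), was at 11.2, 12.1 and 12.3 CPM in SCI, against 4.85, 4.71 and 7.30 CPM in sham. Every SCI library was thus more than 1.5 times the highest sham library, and the log2 fold change was 1.12 ± 0.27 (95% interval 0.55 to 1.69; adjusted p = 0.0769). Mvk rests on few reads, with 62 to 93 counts per library in SCI and 27 to 49 in sham. Its adjusted p was 0.0335 with the DESeq2 Wald test, 0.0238 with no filter on low counts, 0.0318 with the hepatocyte covariate and 0.0273 without sham 3, and lay between 0.0507 and 0.393 in the other 10 alternatives.

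Mvd, mevalonate diphosphate decarboxylase (chromosome 8, 122433601 to 122443422; ENSMUSG00000006517), was at 20.5, 24.0 and 24.9 CPM in SCI, against 14.4, 10.9 and 12.2 CPM in sham. The groups did not overlap, and the log2 fold change was 0.89 ± 0.21 (95% interval 0.44 to 1.34; adjusted p = 0.0769). Its adjusted p over the 14 alternatives ran from 0.0223 with the hepatocyte covariate to 0.303 without SCI 2. Between them in the pathway, Pmvk, phosphomevalonate kinase, overlapped between groups. It was at 30.0, 37.6 and 54.4 CPM in SCI, with SCI 3 far above the rest, against 27.4, 33.6 and 27.3 CPM in sham (log2 0.45 ± 0.22, adjusted p = 0.708).

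Idi1, the isomerase of isopentenyl diphosphate, was nearly unread here and did not pass the filter. It had 12, 1 and 6 counts in SCI and 4, 1 and 3 counts in sham, too few for a comparison. Fdps, which builds farnesyl diphosphate, had 21.3, 31.2 and 25.9 CPM in SCI, against 16.9, 19.9 and 19.7 CPM in sham, with no overlap (log2 0.47 ± 0.21, adjusted p = 0.622). The annotation places the gene Gm43738 over Fdps on the same strand. It has no row in the tables, and how shared reads were assigned is not given in the sources used here.

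**Figure D1:**
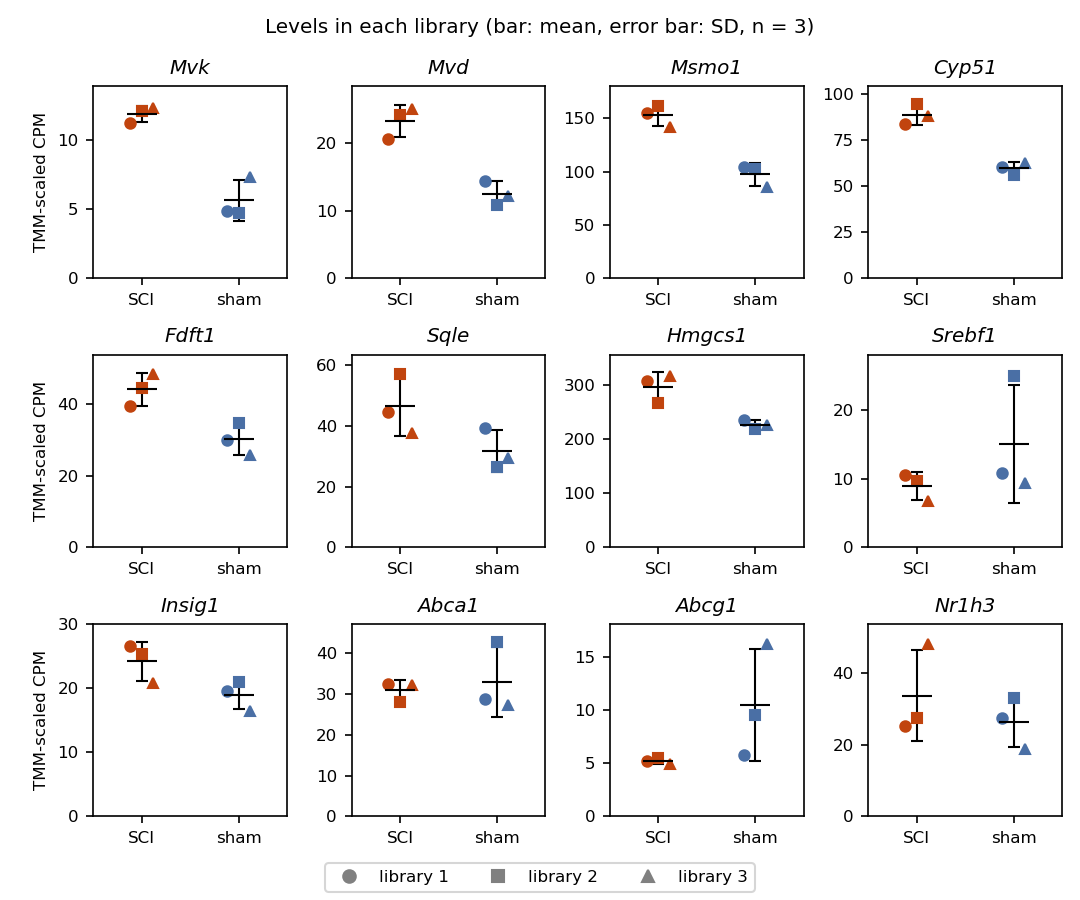
TMM-scaled CPM of 12 members in each library, from 0, with SCI on the left and sham on the right of each panel. Symbols mark library numbers, which the labels do not name as pairs, and bars give the mean ± SD (n = 3). Mvk, Mvd, Msmo1, Cyp51, Fdft1 and Hmgcs1 do not overlap between groups, Srebf1 is set apart by sham 2 at 25.1 CPM and Abcg1 by sham 3 at 16.2 CPM.

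The enzymes that make squalene and close it into the sterol skeleton came next. Fdft1, squalene synthase, was at 39.3, 44.5 and 48.3 CPM in SCI, against 30.0, 34.7 and 25.7 CPM in sham, without overlap (log2 0.53 ± 0.19, adjusted p = 0.404). Its span overlaps that of the abundant protease gene Ctsb on the other strand by 774 bases. Since the strand setting of the counting is not given in the sources used here, reads there cannot be told apart. Ctsb itself had a log2 fold change of -0.07 ± 0.22, and its part in the Fdft1 counts was not tested. Sqle, the oxygenase that turns squalene into squalene epoxide, was at 44.6, 57.0 and 37.8 CPM in SCI, against 39.4, 26.4 and 29.5 CPM in sham. There SCI 3 lay below sham 1, and the log2 fold change was 0.55 ± 0.21 (adjusted p = 0.497). Lss, which closes squalene epoxide into lanosterol, had 21.2, 23.3 and 13.5 CPM in SCI, against 12.7, 15.6 and 13.0 CPM in sham. SCI 3 fell among the sham values (log2 0.49 ± 0.24, adjusted p = 0.698).

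Demethylation of lanosterol held the 2 members with the next smallest p-values. Msmo1, the C4 methylsterol oxidase, was at 155, 162 and 142 CPM in SCI, against 105, 102 and 85.4 CPM in sham. All SCI values were above all sham values, with a log2 fold change of 0.65 ± 0.18 (95% interval 0.27 to 1.03; adjusted p = 0.182). Its adjusted p was 0.0423 with the DESeq2 Wald test and 0.00215 with the hepatocyte covariate, and reached 0.570 over the 14 alternatives. Cyp51, the lanosterol 14-demethylase, was at 83.8, 94.7 and 88.0 CPM in SCI, against 60.4, 56.1 and 62.7 CPM in sham. That is a gap of more than 20 CPM between the groups and a log2 fold change of 0.57 ± 0.17 (adjusted p = 0.228; 0.0172 with the hepatocyte covariate and up to 0.649 over the alternatives). The span of Cyp51 overlaps Akap9 on the other strand by 166 bases, and Akap9 had a log2 fold change of -0.31 ± 0.19. Hsd17b7, the ketoreductase of the same demethylation, averaged 48.7 ± 1.76 CPM in SCI and 35.8 ± 4.40 CPM in sham, without overlap (log2 0.44 ± 0.17, adjusted p = 0.527).

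Nsdhl, Ebp, Sc5d and Tm7sf2 had the 4 smallest log2 fold changes in size among the 17 tested synthesis enzymes, and SCI and sham overlapped in each. They are put together here by these values and not by a shared step of the pathway. Nsdhl, the C4 decarboxylase, had a log2 fold change of 0.10 ± 0.19, Ebp, the sterol isomerase, 0.15 ± 0.23, Sc5d, the C5 desaturase, -0.03 ± 0.20, and Tm7sf2, a C14 reductase, -0.12 ± 0.38 (adjusted p of 0.955 to 0.991). Tm7sf2 shares 532 bases with Vps51 on the same strand. Their 95% intervals reached 0.50, 0.64, 0.39 and 0.69, so a change as large as the median of the synthesis enzymes lies within 3 of the 4 intervals. Ebp and Sc5d had their highest value in sham 2, at 253 and 118 CPM, against 194 to 241 and 87.4 to 94.7 CPM over the SCI libraries. Without sham 2, all 17 tested synthesis enzymes had a positive log2 fold change, against 15 of 17 with all libraries. Dhcr7, the last reductase before cholesterol, averaged 46.4 ± 8.99 CPM in SCI and 35.4 ± 6.73 CPM in sham (log2 0.37 ± 0.20, adjusted p = 0.747).

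Split at farnesyl diphosphate, the earlier 6 tested enzymes had a median log2 fold change of 0.46 and the later 11 had 0.44. SCI lay wholly above sham in 5 of the 6 and in 4 of the 11, where over all tested genes it did so in 7.73%. A difference between the earlier and later enzymes was not tested. The split was chosen after the values were seen. Summed over the 18 enzymes, the level was 1212, 1239 and 1294 CPM in SCI, against 977, 1067 and 849 CPM in sham. The groups did not overlap, and the ratio of their means was 1.29.

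**Figure D2:**
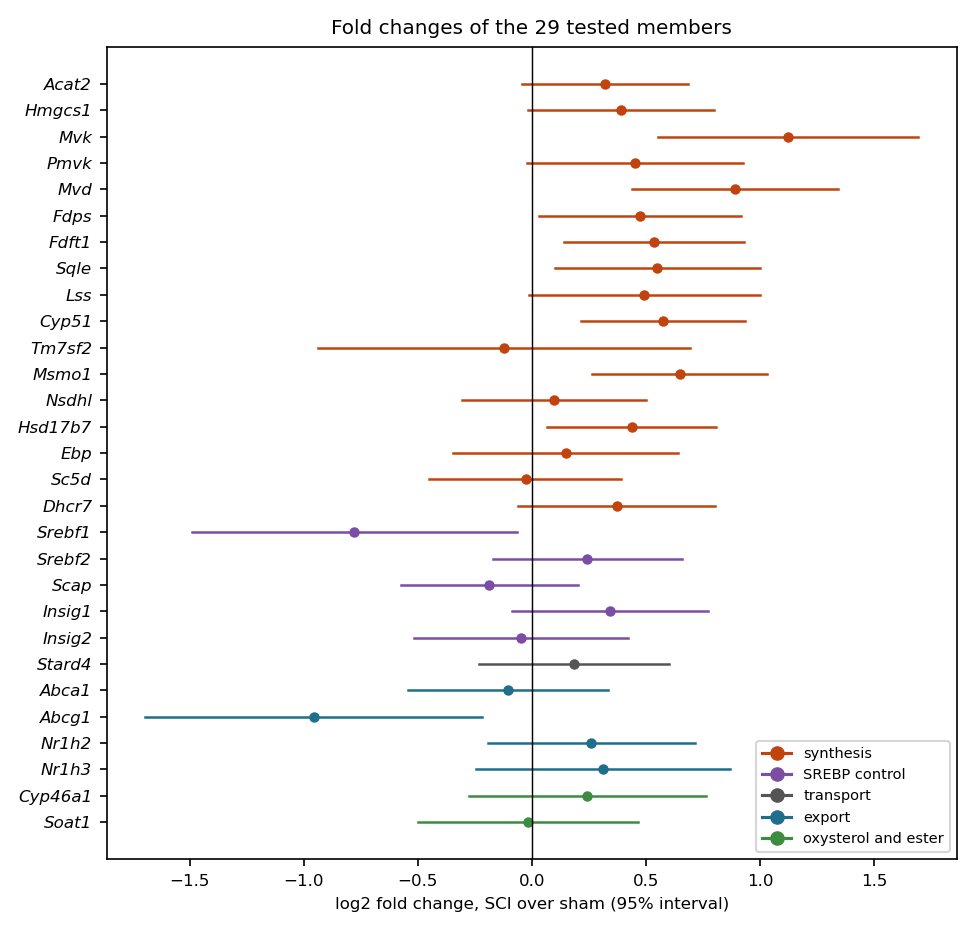
Log2 fold change of SCI over sham (x axis) for the 29 tested members, in pathway order within each role; points are edgeR estimates, lines are 95% intervals and colours give the role. Most synthesis points lie between 0.3 and 0.7, with Mvk at 1.12 and Mvd at 0.89 above them, while the 12 members of other roles lie on both sides of 0.

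SREBP control genes had values on both sides of 0. Srebf2, which encodes the main activator of the sterol enzymes, was at 30.6, 32.1 and 36.4 CPM in SCI, against 33.7, 24.8 and 24.9 CPM in sham. Sham 1 lay among the SCI values, and the log2 fold change was 0.24 ± 0.19 (95% interval -0.17 to 0.66; adjusted p = 0.877), and 0.14 ± 0.20 without sham 2. Insig1, the sterol-regulated retention protein and itself an SREBP target, was at 26.5, 25.3 and 20.8 CPM in SCI, against 19.5, 20.9 and 16.5 CPM in sham. SCI 3 was just below sham 2 (log2 0.34 ± 0.20, adjusted p = 0.790).

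Srebf1, whose products drive fatty acid synthesis, stood on the other side. It was at 10.6, 9.65 and 6.72 CPM in SCI, against 10.9, 25.1 and 9.46 CPM in sham, so 1 sham library set the difference. The log2 fold change was -0.78 ± 0.33 (adjusted p = 0.602) with all libraries and -0.18 ± 0.29 (adjusted p = 0.896) without sham 2, the library with the most hepatocyte transcripts. With the hepatocyte covariate it was -0.47 ± 0.26 (adjusted p = 0.499). Srebf1 overlaps Rai1 on the other strand by 109 bases. Scap, the escort, and Insig2, the second retention protein, had log2 fold changes of -0.19 ± 0.18 and -0.05 ± 0.22, and Insig2 had 167 CPM in sham 2, against 129 and 99.2 CPM in the other sham libraries.

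Export genes had no common direction. The 2 pumps had negative log2 fold changes and the 2 LXR receptors, given next, positive ones. Abca1, the pump that loads cholesterol onto lipid-poor apolipoproteins, was at 32.4, 28.1 and 32.0 CPM in SCI, against 28.7, 42.7 and 27.3 CPM in sham. The SCI values lay within the sham range, with a log2 fold change of -0.11 ± 0.21 (95% interval -0.54 to 0.33; adjusted p = 0.970), and of 0.13 ± 0.19 without sham 2. Abcg1, the pump that passes cholesterol to formed lipoproteins (chromosome 17, 31057675 to 31117988; ENSMUSG00000024030), was at 5.19, 5.47 and 4.94 CPM in SCI, against 5.76, 9.51 and 16.2 CPM in sham. All SCI values were below all sham values, but sham 1 by less than 1 CPM. The log2 fold change was -0.96 ± 0.35 (95% interval -1.69 to -0.22; adjusted p = 0.440), and -0.56 ± 0.33 (adjusted p = 0.619) without sham 3, the library with the fewest counts. Abcg1 counts were 43, 38 and 25 in SCI and 44, 99 and 60 in sham.

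The LXR receptors were also not called. Nr1h2, LXR beta, was at 18.2, 19.9 and 18.2 CPM in SCI, against 18.9, 14.5 and 13.2 CPM in sham, with sham 1 among the SCI values (log2 0.26 ± 0.21, adjusted p = 0.879). Reads of Nr1h2 may be shared with the annotated processed pseudogene Nr1h2-ps. Nr1h3, LXR alpha, which liver also expresses, was at 25.3, 27.4 and 48.3 CPM in SCI, against 27.4, 33.0 and 18.9 CPM in sham. SCI 3 alone exceeded the sham range, and the log2 fold change of 0.31 ± 0.26 (adjusted p = 0.881) was -0.038 ± 0.24 without it.

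Set side by side, the tested synthesis enzymes had a median level, relative to their own mean over the 6 libraries, of 0.16, 0.28 and 0.23 (log2) in SCI libraries 1 to 3, against -0.22, -0.06 and -0.35 in sham libraries 1 to 3. The export genes had -0.07, -0.12 and 0.06 in SCI, against -0.10, 0.30 and -0.28 in sham. Synthesis minus export was 0.23, 0.39 and 0.17 in SCI, against -0.11, -0.36 and -0.07 in sham, so the groups did not overlap. Each gene was set against its own mean over these libraries, so the opposite signs add nothing to that. The lowest value, in sham 2, came with the highest export median, 0.30. The difference of the 2 median log2 fold changes was 0.37. With 4 export genes whose own values ran from -0.96 to 0.31, that median says little about any one of them. The export median pools 2 pumps, both below 0, with 2 LXR receptors, both above 0, in the fit to all libraries.

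**Figure D3:**
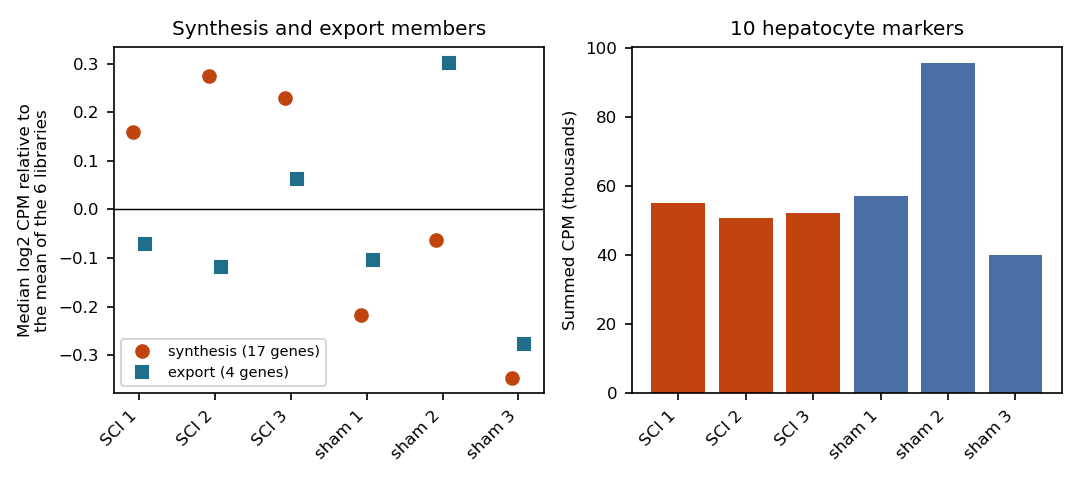
Left, median log2 CPM of the 17 tested synthesis enzymes (circles) and 4 export genes (squares) in each library, relative to each gene's mean over the 6 libraries; right, summed CPM of 10 hepatocyte markers in the same libraries. Synthesis is above 0 in the 3 SCI libraries and below 0 in the 3 sham libraries, export is highest in sham 2 at 0.30, and sham 2 also holds the most hepatocyte transcripts.

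No tested member of sterol transport, oxidation or storage was called. Stard4, the soluble carrier that brings cholesterol to the endoplasmic reticulum and a known SREBP2 target, was at 37.4, 36.6 and 46.3 CPM in SCI, against 32.0, 42.8 and 30.0 CPM in sham, with overlap (log2 0.19 ± 0.20, adjusted p = 0.921). That value was 0.35 ± 0.19 without sham 2 and 0.064 ± 0.21 without SCI 3. Cyp46a1, the neuronal cholesterol 24-hydroxylase, was at 12.7, 9.79 and 13.6 CPM in SCI, against 9.69, 9.03 and 12.2 CPM in sham (log2 0.24 ± 0.24, adjusted p = 0.915; 0.15 ± 0.27 without sham 2). Soat1, which esterifies cholesterol for storage, was at 22.1, 15.4 and 23.5 CPM in SCI, against 17.8, 19.4 and 25.1 CPM in sham, a log2 fold change of -0.02 ± 0.23 (adjusted p = 0.995). Ch25h, the cholesterol 25-hydroxylase known for its induction in activated macrophages, had 1 count in SCI 2 and 0 in the other 5 libraries. At these depths 3 counts, the limit that a count of 0 allows, correspond to between 0.288 CPM in sham 2 and 0.811 CPM in sham 3 on the same scaled library sizes, for counting error only.

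Other genes of sterol and fatty acid metabolism, 73 in 7 lists, gave no called gene among the 70 tested. Over all genes edgeR called 0.885% higher and 0.0442% lower. At an unadjusted p under 0.05, 1 of the 70 was higher and 4 were lower, where 4.27% of all tested genes were higher and 3.11% lower. A positive log2 fold change was found in 32 of the 70, and in 49.7% of all tested genes. The median over the 70 was -0.02. Among 16 genes of fatty acid synthesis, 8 were positive and the median was -0.005, against 0.45 for the 17 tested synthesis enzymes. The 2 with the smallest p-values were Mid1ip1, an activator of acetyl-CoA carboxylase, at -0.39 ± 0.25, and Elovl6, a fatty acid elongase, at -0.27 ± 0.20. Among 9 other isoprenoid and sterol enzymes, 4 were positive. Nus1, a subunit of the enzyme that makes dolichol, averaged 17.1 ± 0.24 CPM in SCI and 24.0 ± 1.35 CPM in sham (log2 -0.49 ± 0.19, adjusted p = 0.517), and Aacs, acetoacetyl-CoA synthetase, had 0.45 ± 0.29.

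Uptake genes were likewise not called in the 11 tested. Vldlr, a lipoprotein receptor, averaged 32.2 ± 3.07 CPM in SCI and 47.5 ± 5.38 CPM in sham, with all SCI values below all sham values (log2 -0.55 ± 0.18, adjusted p = 0.333). Of 12 other LXR targets, partners and transporters, 5 were positive. Mylip, an LXR-induced ubiquitin ligase of lipoprotein receptors, had -0.61 ± 0.35, and Smpdl3a, an LXR-induced phosphodiesterase in human macrophages, had -0.37 ± 0.24, which was -0.017 ± 0.21 without sham 2.

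Among 10 genes of sterol transfer and ester turnover, Gramd1c, a sterol carrier, had -0.68 ± 0.30 and Lipe, the hormone-sensitive lipase, had 0.48 ± 0.21 (adjusted p = 0.632 for both). Of 6 other oxysterol genes, 4 were tested. Cyp27a1, the sterol 27-hydroxylase, which liver also makes, averaged 70.8 ± 3.41 CPM in SCI and 104 ± 58.1 CPM in sham (log2 -0.57 ± 0.30), and Hsd3b7, a bile acid enzyme, had -0.16 ± 0.23. Without sham 2 these were -0.058 ± 0.20 and 0.11 ± 0.19. In the 8 genes of SREBP processing and sterol degradation, Erlin1, part of an endoplasmic reticulum degradation complex, had -1.05 ± 0.41 and Rnf145, a ubiquitin ligase, -0.28 ± 0.23. Erlin1 was at 3.56 to 4.10 CPM in SCI, against 13.5 CPM in sham 2 and 4.06 and 5.41 CPM in the other sham libraries, and without sham 2 its log2 fold change was -0.29 ± 0.39.

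**Figure D4:**
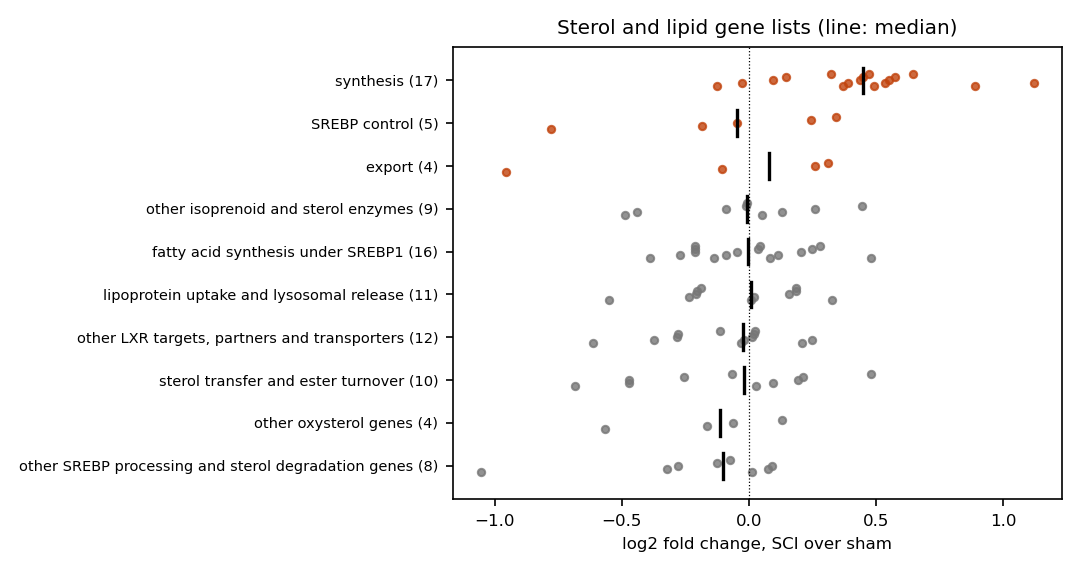
Log2 fold change of SCI over sham (x axis) for each tested gene of 10 lists (rows, number of genes in brackets); colour marks the members, grey the other lists, and the line is the list's median. The synthesis enzymes have a median of 0.45, while the medians of the other 9 lists lie between -0.11 and 0.08.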

How the data were processed

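Per the labels, total RNA was made into QuantSeq Forward libraries, 1 per mouse. The authors deposited raw counts, whole numbers of reads per Ensembl gene and not normalized. Per the series' design text, single-end reads were aligned with STAR 2.7.2b to mm10 with the Ensembl annotation of GRCm38. DESeq2 1.24.0 is named in the submitters' processing notes. Which tool counted the reads, with which strand setting and with or without molecular identifiers, is not given in the sources used here, so overlapping genes and near-identical copies are uncertain and intervals of counts cover counting error only. A 3′ count does not scale with transcript length. A symbol matched 42462 of 43432 identifiers, and the others held 0.0884% of counts.

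Genes passed filterByExpr by group (13560), were scaled by TMM and tested with edgeR 4.0.16 in R 4.3.3 (quasi-likelihood test, robust), SCI over sham, without covariates. P-values were adjusted by Benjamini-Hochberg over all of these genes, with calls at an adjusted p under 0.05. The standard error is the size of the log2 fold change over the square root of F, and 95% intervals use the moderated degrees of freedom. CPM are TMM-scaled, and their precision follows the depths given above.

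The members, lists, motifs and printed sequences were chosen with earlier results of these data known, and no test was made over a list. Members described library by library were the 6 synthesis enzymes and 3 control genes with the smallest p, all members of the other roles, and any member called in an alternative; Hmgcs1, Fdps, Lss and Pmvk were added after their values were seen. Of each other list, the 2 genes with the smallest p are named. Not every gene of the pathway, or that these rules name, is reported here. Alternatives were RLE size factors, total counts, no filter, a CPM of at least 1 in 3 libraries, the DESeq2 Wald test (DESeq2 1.42.0), limma voom (limma 3.58.1), a replicate block, the mean log2 CPM of the hepatocyte markers as a covariate, and each library left out.

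The procedure was tested on simulated data. No library was counted as a duplicate, since replicates differed beyond sampling noise in all pairs (chi-square per degree of freedom 6.97 to 38.0). The 3 mice per group are stated in the design text.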

Additional observations from a re-analysis of the deposited data

How the results depend on the processing

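The synthesis median stayed between 0.39 and 0.51 (log2) in the 14 alternatives. Called synthesis enzymes, 0 with the reported settings, numbered 2 with no filter (Mvk and Mvd), 3 with the DESeq2 Wald test (these and Msmo1) and 4 with the hepatocyte covariate (these and Cyp51). Over all genes these 3 settings called 0.846%, 1.04% and 1.52% higher, against 0.885% as reported. They called 0.195%, 0.0811% and 0.221% lower, against 0.0442% as reported. Without each single library in turn, 0 to 1 synthesis enzymes were called, the 1 being Mvk without sham 3. That setting called 0.946% of all genes higher and 0.1% lower. No export gene was called in any of the 14 alternatives. Synthesis enzymes higher at an unadjusted p under 0.05, 8 as reported, were 14 with the hepatocyte covariate and 5 to 12 without single libraries. The shares of all genes higher at that level were 4.27%, 7.44% and 3.29% to 5.33%. All genes called, 126 of 13560 as reported, were 224 of 21524 with no filter and 236 of 13560 with the hepatocyte covariate. They were 82 of 13560 with a replicate block and 63 of 13705 to 146 of 13950 without single libraries.

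The export median ranged from -0.09 without SCI 3 to 0.16 without sham 2 and was also below 0 without sham 3 (-0.038). Synthesis minus export, 0.37 as reported, was 0.30 to 0.54 without single libraries. Over the 15 fits, the reported one included, 8 of the 29 tested members had values of both signs, none of them called. They were Abca1 (0.13 without sham 2), Nr1h3 (-0.038 without SCI 3), Soat1 (0.15 without SCI 2 and 0.12 without sham 3), Tm7sf2 (-0.41 to 0.38), Sc5d (-0.17 to 0.18), Insig2 (-0.23 to 0.15), Ebp (-0.048 to 0.40) and Nsdhl (-0.01 to 0.17). Over the single libraries left out, Abca1 lay between -0.215 and 0.13, Nr1h3 between -0.038 and 0.491 and Soat1 between -0.137 and 0.15. The cause was not tested. With the replicate block, Mvk and Mvd had adjusted p of 0.222 and 0.302, and no member was called. Libraries of the same number did not deviate together (correlations of -0.17 to -0.07 across genes, against -0.064 to 0.123 for other numbers). The labels name no pairs, and with 3 libraries per group these correlations cannot exclude a shared batch. With 27 to 49 counts of Mvk and 44 to 99 of Abcg1 in a sham library, depth limits both.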

Other observations

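Mvk lies head to head with Mmab, a gene of cobalamin metabolism whose annotated start is 209 bases away on the other strand, so the promoter stretch printed for Mvk lies between the 2 genes. Mmab was looked up after the values of Mvk were seen. Its log2 fold change was 0.27 ± 0.23 (edgeR adjusted p = 0.890), against 1.12 ± 0.27 for Mvk, and the difference between the 2 genes was not tested.

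Nsdhl, Dhcr7 and Nr1h3 also have a protein-coding neighbour that starts within 1000 bases on the other strand. Cetn2, the centrin gene beside Nsdhl, had a log2 fold change of -0.02 ± 0.19, against 0.10 ± 0.19 for Nsdhl. Nadsyn1, the NAD synthetase gene beside Dhcr7, had -0.34 ± 0.33, against 0.37 ± 0.20 for Dhcr7. Acp2, an acid phosphatase gene beside Nr1h3, had -0.038 ± 0.18, against 0.31 ± 0.26 for Nr1h3. Noncoding or unclassified neighbours of this kind, beside Hsd17b7, Insig1, Ch25h and Idi1, had 0 to 12 counts per library or no row in the tables.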
